A study of Mus musculus with 9 samples.

Results

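The synaptic vesicle and release machinery was followed through 34 genes, chosen by their symbols from the 52550 genes of the deposited transcript tables of mouse cerebral cortex. They fell into 7 roles, from vesicle membrane proteins to the proteins that retrieve vesicles after release, and all 34 passed the filter on low values. The knockdown libraries (numbers 2, 3 and 4) came from mice given a locked nucleic acid antisense oligo against the enhancer RNA eRNA_06347 through the lateral ventricles, and then 1 h of middle cerebral artery occlusion by a filament with 6 h of reperfusion. The control oligo libraries (numbers 1, 2 and 3) had a negative control oligo and the same occlusion and reperfusion, which models ischemic stroke. The sham libraries (numbers 1, 2 and 3) came from mice with a neck incision and no filament, for whom the labels name no oligo, and were taken from earlier data of the laboratory. All mice were male C57BL/6N of 9 to 12 weeks, and the stroke tissue was the infarcted cortex on the side of the occlusion. The labels do not say whether a library was 1 mouse or a pool.

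A synaptic vesicle is filled with transmitter by a transporter, docks at the active zone, and fuses when calcium binds a synaptotagmin and the vesicle SNARE zippers with its partners on the plasma membrane. Complexins and priming proteins hold the vesicle ready, Nsf and its adaptors take spent SNARE complexes apart, and dynamin, clathrin adaptors and a lipid phosphatase bring the membrane back. In cortex most of these proteins are made by excitatory neurons that use glutamate and by a smaller population of inhibitory neurons that use GABA, so the transcripts report on neurons within a tissue that also holds glia, vessels and blood cells.

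Levels are given as TPM, relative transcript abundances that correct for transcript length and library size. The knockdown and control oligo libraries held 4.92 to 5.52 aligned gigabases and the sham libraries 2.98 to 3.18, and the least covered of the 34 genes in any library still had 42.7 kilobases aligned. A read pair covered an inferred 282 bases in the stroke libraries and 102 in sham. These lengths are the commonest number of bases aligned to single-exon transcripts of low coverage. Structural RNAs took 0.19 to 0.35% of all TPM in the stroke libraries and 46.3 to 52.1% in sham, mitochondrial transcripts took 22.6 to 28.9% in the stroke libraries and 0.28 to 0.58% in sham, and nuclear protein-coding genes took 54.7 to 63.9% in the stroke libraries and 30.6 to 34.2% in sham. Stroke therefore cannot be told apart from data set, read length and RNA selection in any comparison with sham. Nor can it be told apart from the oligo given to the stroke mice, since the labels name none for sham. Because of this composition each change is also given with scaled TPM (each library divided by its median ratio to a common reference) and with coding TPM (shares of nuclear protein-coding genes only). The median of all genes tested, control oligo against sham, was 0.56 on the log2 scale with TPM, 0.01 with scaled TPM and -0.06 with coding TPM. Summed neuron markers (8 genes) stood at 2012, 2078 and 1456 TPM in knockdown, 1824, 2004 and 1659 TPM in control oligo and 1265, 1366 and 1189 TPM in sham, so neuronal transcripts were present in each library. With coding TPM the neuron sum was 3149, 3292 and 2554 in knockdown, 3191, 3287 and 3033 in control oligo and 3726, 3994 and 3885 in sham. On that scale each stroke library lay below each sham library. In such bulk tissue, fewer cells of a type and less RNA per cell cannot be told apart.

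Levels of the 34 genes spanned more than 2 orders of magnitude, and Snap25, a SNARE protein of the plasma membrane, was the highest in each, with 3095, 2688 and 1854 TPM in knockdown, 2359, 2533 and 2539.5 TPM in control oligo and 1646, 1668 and 1447 TPM in sham. Pclo and Slc17a6 were the lowest in the stroke libraries. The summed TPM of the 34 genes was 12497, 11278 and 7805 in knockdown, 10546, 11587 and 10245 in control oligo and 6415, 6669 and 5717 in sham. Means below are ± SD over 3 libraries and log2 changes ± SE. As a share of nuclear protein-coding TPM they took 1.96, 1.79 and 1.37% in knockdown, 1.84, 1.90 and 1.87% in control oligo and 1.89, 1.95 and 1.87% in sham. On that scale control oligo and sham overlapped, and knockdown library 4 was the lowest of the 9. The tables' header names no strand option, and 11 members overlap a gene on the opposite strand, so their values are uncertain to that extent (Syp, Syngr1, Syn1, Syn2, Syt2, Doc2a, Vamp1, Rab3a, Unc13a, Dnm1 and Synj1).

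**Figure D1:**
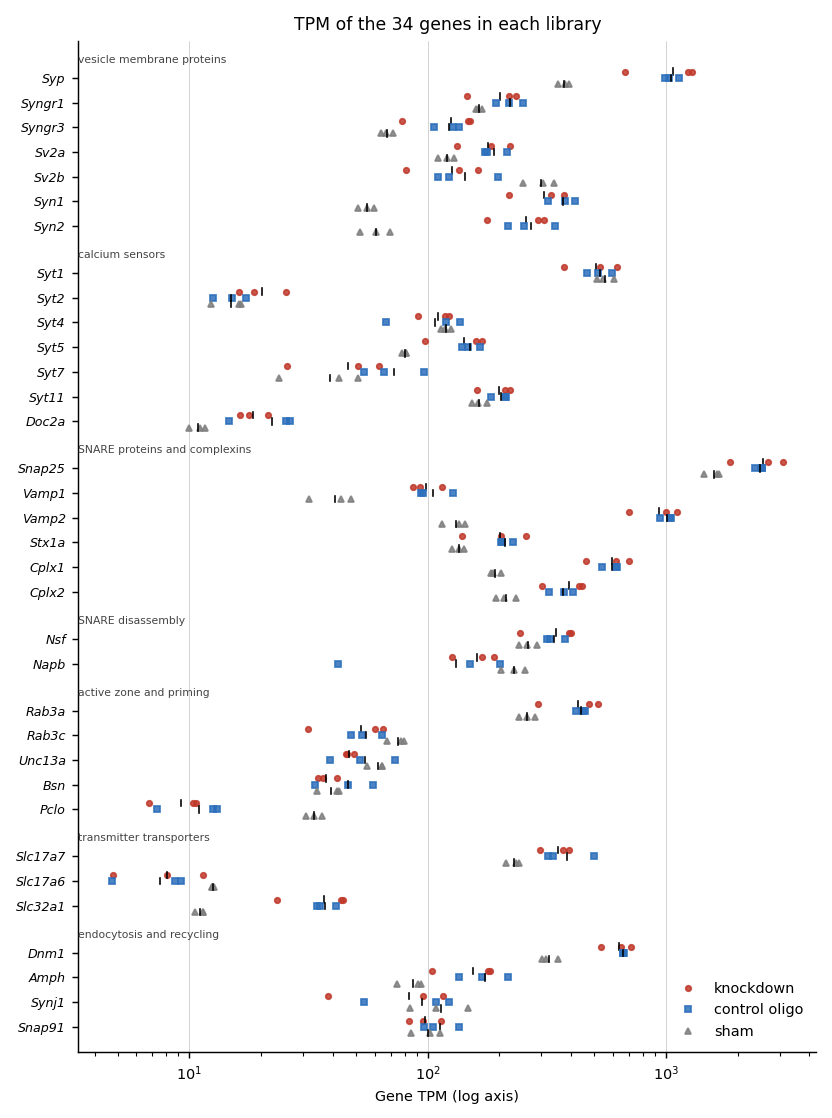
TPM of each of the 34 genes (rows, by role) in each library on a log axis, with knockdown, control oligo and sham as separate marks and a bar at each group mean. Snap25 lies between 1447 and 3095 TPM in all libraries, while Vamp2, Syn1, Syn2 and Slc32a1 have both stroke groups to the right of sham, and Pclo and Sv2b have them to the left.

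Control oligo against sham sets injured cortex of mice given an oligo beside uninjured cortex of mice for whom the labels name none, with the limits of the sham data set. With TPM, 21 of the 34 genes were higher in control oligo than in sham, 4 were lower and 9 did not pass (limma, Benjamini-Hochberg adjusted over 17080 genes), where 52.6% of all genes were higher and 12.8% lower. The members' median log2 change was 0.64, against 0.56 for all genes. With scaled TPM 8 were higher and 13 lower (26.1% and 29.2% of all genes), with a median of -0.02, and with coding TPM 7 were higher and 15 lower (21.5% and 29.2%), with a median of -0.16. The 7 that were higher on all 3 scales were Syp, Syn1, Syn2, Vamp1, Vamp2, Cplx1 and Slc32a1, and the 4 that were lower on all 3 were Sv2b, Rab3c, Pclo and Slc17a6. Of the genes tested on all 3 scales, 21.9% were higher on each and 8.38% lower on each. In 27 of the 34 genes the TPM of the groups did not overlap, 22 with control oligo above sham and 5 with it below, and 70.4% of all genes did not overlap. Without sham library 1 or sham library 2 the count of lower members was 2. The shares of all genes given here also stand beside the counts by role, marker list and length below.

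**Figure D2:**
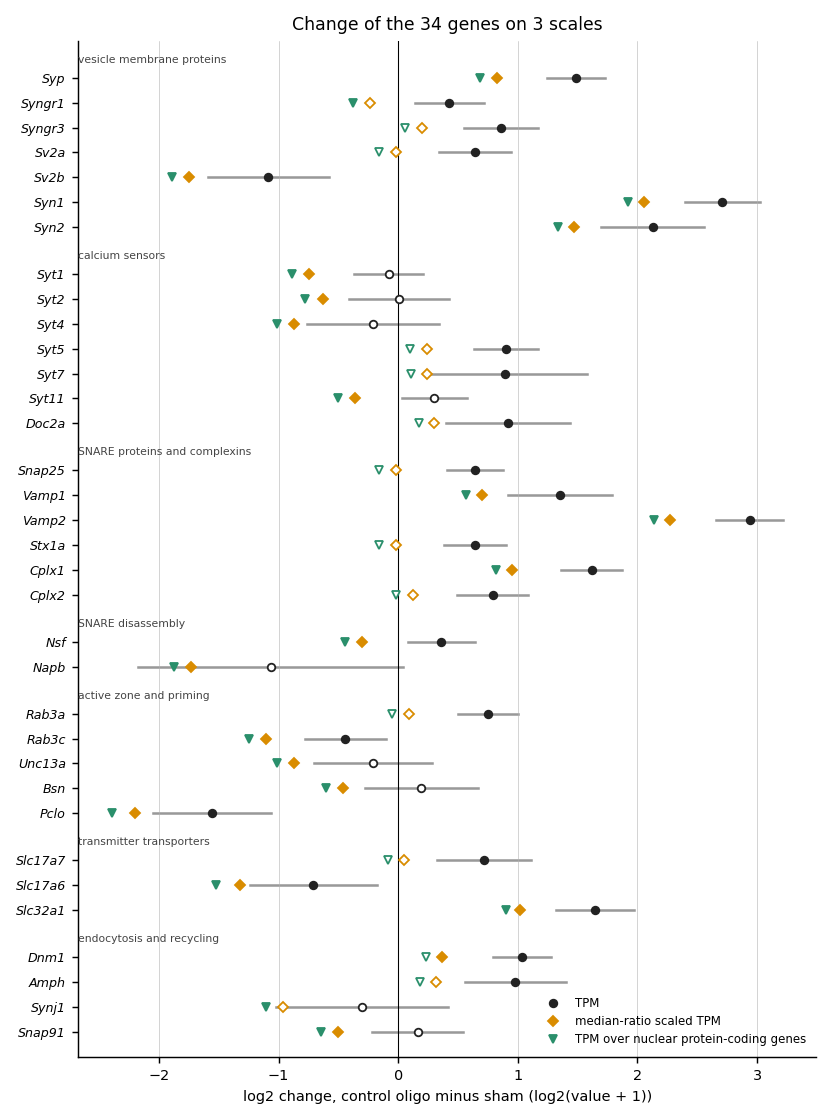
Log2 change of each of the 34 genes, control oligo minus sham, with TPM (circles, grey bar the 95% interval), scaled TPM (diamonds) and coding TPM (triangles); filled marks passed the test on that scale. Vamp2, Syn1 and Syn2 stay right of 0 and Pclo and Sv2b left of 0 on all 3 scales, while 12 genes lie on the other side of 0 with coding TPM than with TPM, among them Sv2a, Snap25, Stx1a and Slc17a7.

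Among the 7 vesicle membrane proteins, 6 were higher with TPM and 1 was lower, and 3 were higher and 1 lower on all 3 scales. Of all genes, 52.6% were higher and 12.8% lower with TPM, and 21.9% and 8.38% on all 3 scales. Syn1 encodes synapsin I, which tethers vesicles in the reserve pool, and had 372, 329 and 220.1 TPM in knockdown, 377, 416 and 319 TPM in control oligo and 59.7, 55.8 and 51.3 TPM in sham. All 6 stroke libraries lay above the 3 sham libraries by a wide margin. The log2 change of Syn1, control oligo against sham, was 2.71 ± 0.14 (SE, adjusted p = 2.18e-06), and it was 2.05 with scaled TPM and 1.92 with coding TPM. Timp1, an inhibitor of metalloproteinases that lies in an intron of Syn1 on the opposite strand, averaged 75.3 TPM in knockdown, 65.0 TPM in control oligo and 0.713 TPM in sham, and its part in the Syn1 value was not tested. Rpl3, a ribosomal protein gene opposite Syngr1, averaged 561 TPM in knockdown, 503 TPM in control oligo and 162 TPM in sham, and its part was not tested either. Syn2, the related synapsin II, averaged 258 ± 70.8 TPM in knockdown, 271 ± 64.2 TPM in control oligo and 60.7 ± 8.88 TPM in sham (SD, n = 3 each), and its change was 2.13 ± 0.19 (SE, adjusted p = 3.98e-05). Syp, or synaptophysin, an abundant vesicle protein that binds the vesicle SNARE, averaged 1066 ± 341 TPM in knockdown, 1053 ± 71.9 TPM in control oligo and 375 ± 21.1 TPM in sham, with a change of 1.49 ± 0.11 (SE, adjusted p = 1.47e-05). Both stayed higher on the other scales, where the change was 1.47 with scaled TPM and 1.33 with coding TPM for Syn2 and 0.82 with scaled TPM and 0.68 with coding TPM for Syp.

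Sv2b, a vesicle glycoprotein of the transporter-like SV2 family, went the other way and had 163, 136 and 81.3 TPM in knockdown, 110.4, 198 and 123 TPM in control oligo and 303, 339 and 252 TPM in sham. Each stroke library was below each sham library, and the change was -1.08 ± 0.22 (SE, adjusted p = 0.00265) with TPM, -1.75 with scaled TPM and -1.89 with coding TPM. Its paralogue Sv2a averaged 179.5 ± 44.3 TPM in knockdown, 189 ± 23.0 TPM in control oligo and 120.4 ± 9.22 TPM in sham and was higher with TPM at 0.64 ± 0.13 (SE, adjusted p = 0.00271), but turned sign and did not pass on the other scales (-0.02 with scaled TPM and -0.16 with coding TPM). The synaptogyrins, which span the vesicle membrane like synaptophysin, were higher with TPM at 0.43 for Syngr1 and 0.86 for Syngr3. Syngr1 turned to -0.24 with scaled TPM, which did not pass, and was lower with coding TPM at -0.38, and Syngr3 did not pass on either scale. Without sham library 1 the Syngr1 call with TPM was lost (adjusted p = 0.0636).

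Syn1 was carried by the transcripts Syn1-201 and Syn1-202, and their shares also separated the data sets. Of the Syn1 TPM, Syn1-202 held 36.9, 42.0 and 34.6% in knockdown, 39.1, 36.3 and 40.5% in control oligo and 9.45, 11.5 and 11.9% in sham, so no stroke library came near the sham range and the 2 stroke groups overlapped. The models differ where the last exon begins, on the minus strand of the X chromosome (GRCm38, GENCODE M21). Syn1-201 starts it 38 bases earlier, shown in capitals. The stretch printed for Syn1-201, capitals and lower case together, is chrX:20861552-20861609, and the lower-case bases, with which Syn1-202 starts the exon, are chrX:20861552-20861571. The models also differ elsewhere, with a full length of 3209 nt in Syn1-201 and 3261 nt in Syn1-202.
Syn1-201: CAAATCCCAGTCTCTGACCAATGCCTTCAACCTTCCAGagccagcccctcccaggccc
Syn1-202: agccagcccctcccaggccc

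The median log2 change of the 7 calcium sensors was 0.30 with TPM and -0.36 with scaled TPM. With TPM 3 were higher (Syt5, Syt7 and Doc2a), none was lower and 4 did not pass, and on the other 2 scales none was higher and 4 were lower (Syt1, Syt2, Syt4 and Syt11). Syt1, the sensor of fast synchronous release in most forebrain neurons, averaged 508 ± 127 TPM in knockdown, 527 ± 63.4 TPM in control oligo and 556 ± 47.5 TPM in sham, with a change of -0.08 ± 0.13 (SE, adjusted p = 0.596) that did not pass with TPM and was lower at -0.75 with scaled TPM and -0.89 with coding TPM. Doc2a, a high-affinity calcium sensor of slower and spontaneous release, had 21.4, 17.8 and 16.3 TPM in knockdown, 14.7, 25.4 and 26.5 TPM in control oligo and 11.1, 11.7 and 9.94 TPM in sham. The groups did not overlap between stroke and sham, and the change was 0.92 ± 0.23 (SE, adjusted p = 0.00691), but 0.30 with scaled TPM and 0.17 with coding TPM did not pass. Syt4, whose first C2 domain does not bind calcium, had 123, 118 and 90.8 TPM in knockdown, 136, 119 and 66.6 TPM in control oligo and 125, 118 and 114 TPM in sham. Control oligo library 3 was the lowest of the 9 and the other 8 lay between 90.8 and 136 TPM, and the change was -0.21 ± 0.24 (SE, adjusted p = 0.461), and it was lower at -0.87 with scaled TPM and -1.02 with coding TPM. Syt11, a synaptotagmin with the same defect, changed by 0.30 ± 0.12 (SE, adjusted p = 0.0508) with TPM and was lower at -0.36 with scaled TPM and -0.50 with coding TPM. Without control oligo library 3 Syt11 passed as higher with TPM (log2 change 0.37, adjusted p = 0.0259).

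Syt7, a slow high-affinity sensor of asynchronous release, had 25.6, 50.8 and 62.3 TPM in knockdown, 54.3, 96.7 and 65.8 TPM in control oligo and 51.3, 42.3 and 23.8 TPM in sham, which is a wide spread within every group. Its change with TPM was 0.90 ± 0.30 (SE, adjusted p = 0.0271). The call was lost without sham library 3 (log2 change 0.58, adjusted p = 0.0879) and without control oligo library 2 (0.67, adjusted p = 0.0859). Syt2, the fast sensor of brainstem and fast-spiking inhibitory neurons, had 25.6, 18.6 and 16.2 TPM in knockdown, 12.6, 17.3 and 15.2 TPM in control oligo and 12.3, 16.2 and 16.5 TPM in sham, with a change of 0.00 ± 0.18 (SE, adjusted p = 0.987), and was lower at -0.62 with scaled TPM and -0.78 with coding TPM. Syt5 averaged 142 ± 38.5 TPM in knockdown, 151 ± 13.1 TPM in control oligo and 80.1 ± 1.79 TPM in sham, with a change of 0.90 ± 0.12 (SE, adjusted p = 2.76e-04) that did not pass on the other scales.

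All 6 SNARE proteins and complexins were higher with TPM, and 3 of them (Vamp1, Vamp2 and Cplx1) on all 3 scales. Of all genes, 52.6% were higher with TPM and 21.9% on all 3 scales. Vamp2, synaptobrevin 2, the vesicle SNARE of most forebrain synapses, changed more than any other member, with 1115, 999.6 and 702 TPM in knockdown, 1042, 1047 and 946 TPM in control oligo and 136, 144 and 115 TPM in sham. Even the lowest stroke library, knockdown 4, was far above the highest sham library. The change was 2.94 ± 0.12 (SE, adjusted p = 6.63e-07), and it was 2.27 with scaled TPM and 2.14 with coding TPM. Vamp1, the related SNARE of brainstem, spinal and inhibitory synapses, averaged 98.4 ± 14.7 TPM in knockdown, 106 ± 19.0 TPM in control oligo and 40.9 ± 8.33 TPM in sham, a change of 1.35 ± 0.19 (SE, adjusted p = 4.04e-04) with TPM and of 0.70 with scaled TPM and 0.56 with coding TPM. Cplx1 encodes a complexin, which clamps the partly zippered SNARE complex until calcium arrives, and averaged 593 ± 119.9 TPM in knockdown, 593 ± 47.3 TPM in control oligo and 192 ± 9.50 TPM in sham, with a change of 1.62 ± 0.11 (SE, adjusted p = 1.21e-05) and of 0.95 with scaled TPM and 0.82 with coding TPM.

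The plasma membrane SNAREs Stx1a and Snap25 changed by 0.64 each with TPM, against a median of 0.56 over all genes. Stx1a, syntaxin 1A, had 259, 203 and 139 TPM in knockdown, 202, 227 and 205 TPM in control oligo and 143, 136 and 127 TPM in sham, and its change was 0.64 ± 0.11 (SE, adjusted p = 0.00133), but -0.02 with scaled TPM and -0.16 with coding TPM. Knockdown library 4 lay in the sham range and the other 5 stroke libraries above it. Snap25 changed by 0.64 ± 0.10 (SE, adjusted p = 7.35e-04), and by -0.02 with scaled TPM and -0.16 with coding TPM, which did not pass and turned sign. Cplx2, the complexin of excitatory forebrain neurons, changed by 0.79 ± 0.13 (SE, adjusted p = 9.11e-04) with TPM, and by 0.12 with scaled TPM and -0.02 with coding TPM. Set against Snap25, Vamp2 stood at 0.360, 0.372 and 0.379 in knockdown, 0.442, 0.413 and 0.372 in control oligo and 0.0823, 0.0864 and 0.0796 in sham. This ratio does not depend on library scaling, and its stroke and sham values did not overlap.

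Snap25 is spliced with either of a pair of mutually exclusive versions of exon 5, and exon 5b is known to replace exon 5a as neurons mature. Snap25-202 carries exon 5a and Snap25-201 exon 5b, and they are shown because their balance is a measure of the mature form. Both are annotated on the plus strand of chromosome 2 (GRCm38, GENCODE M21), as chr2:136769743-136769860 for Snap25-202 and chr2:136770057-136770174 for Snap25-201. Each is 118 nt long, and the 31 bases at which they differ are in capitals.
Snap25-201: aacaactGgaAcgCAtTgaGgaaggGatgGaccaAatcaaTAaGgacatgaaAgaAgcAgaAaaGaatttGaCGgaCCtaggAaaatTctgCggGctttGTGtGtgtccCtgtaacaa
Snap25-202: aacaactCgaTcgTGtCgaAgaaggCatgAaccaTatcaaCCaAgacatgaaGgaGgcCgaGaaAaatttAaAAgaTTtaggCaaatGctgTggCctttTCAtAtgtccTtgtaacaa
Of the Snap25 TPM, Snap25-202 held 3.64, 4.35 and 2.98% in knockdown, 3.04, 5.07 and 3.43% in control oligo and 3.83, 4.48 and 4.59% in sham. The 3 groups overlapped.

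Of the SNARE disassembly genes, Nsf encodes the ATPase that pulls SNARE complexes apart and had 401, 393 and 244 TPM in knockdown, 326, 379 and 317 TPM in control oligo and 262, 289 and 243 TPM in sham. Control oligo lay above sham in every library, and knockdown library 4 lay in the sham range. The change was 0.36 ± 0.12 (SE, adjusted p = 0.0291) with TPM but turned to -0.30 with scaled TPM and -0.44 with coding TPM, where it passed as lower. The TPM call was lost without sham library 1 or 3 and without control oligo library 1 or 2, with an adjusted p of 0.0523 to 0.0918. Napb encodes beta-SNAP, the brain adaptor of that ATPase, and had 190.1, 169 and 127 TPM in knockdown, 150.5, 202 and 42.1 TPM in control oligo and 231, 256 and 203 TPM in sham. All stroke libraries were below sham, and control oligo library 3 stood far below every other library. The change was -1.07 ± 0.49 (SE, adjusted p = 0.0821) and did not pass with TPM. It passed as lower on the other scales (-1.73 with scaled TPM and -1.88 with coding TPM), and without control oligo library 2 it passed with TPM as well (log2 change -1.51, adjusted p = 0.0225).

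The 5 active zone and priming genes split by gene. Rab3a encodes the main small GTPase that brings vesicles to the release site and had 520.2, 474 and 291 TPM in knockdown, 457, 418 and 447 TPM in control oligo and 262, 281 and 242 TPM in sham. Each stroke library was above each sham library, with a change of 0.75 ± 0.11 (SE, adjusted p = 4.77e-04), but 0.09 with scaled TPM and -0.05 with coding TPM, which did not pass. Pclo encodes piccolo, a giant scaffold of the active zone, and had 10.4, 6.74 and 10.7 TPM in knockdown, 12.5, 13.1 and 7.32 TPM in control oligo and 35.9, 33.3 and 31.0 TPM in sham. Every stroke library was below every sham library, with a change of -1.56 ± 0.22 (SE, adjusted p = 3.71e-04), and of -2.20 with scaled TPM and -2.39 with coding TPM. Bsn encodes bassoon, the partner scaffold, and had 34.7, 41.6 and 36.5 TPM in knockdown, 46.2, 58.8 and 33.6 TPM in control oligo and 41.6, 42.3 and 34.4 TPM in sham. Its groups overlapped with TPM, with a change of 0.19 ± 0.21 (SE, adjusted p = 0.426), and it was lower on the other scales (-0.46 with scaled TPM and -0.60 with coding TPM). Set against each other, Bsn over Pclo was 3.35, 6.16 and 3.42 in knockdown, 3.70, 4.49 and 4.59 in control oligo and 1.16, 1.27 and 1.11 in sham. The stroke and sham ratios did not overlap.

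Rab3c, a relative of Rab3a, averaged 52.3 ± 18.1 TPM in knockdown, 55.0 ± 8.29 TPM in control oligo and 74.8 ± 6.59 TPM in sham and was lower in control oligo at -0.44 ± 0.15 (SE, adjusted p = 0.0275) with TPM and at -1.10 with scaled TPM and -1.25 with coding TPM. The TPM call was lost without sham library 1 or 2 or control oligo library 1, with an adjusted p of 0.0943 to 0.103. Unc13a encodes Munc13-1, which opens syntaxin and primes vesicles, and averaged 46.7 ± 2.10 TPM in knockdown, 54.7 ± 17.3 TPM in control oligo and 61.6 ± 5.05 TPM in sham. Its change was -0.21 ± 0.22 (SE, adjusted p = 0.404) with TPM, and -0.87 with scaled TPM and -1.02 with coding TPM, where it was lower. Without control oligo library 2 it passed as lower with TPM too (log2 change -0.44, adjusted p = 0.0418).

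Of the 3 transmitter transporters 2 were higher and 1 was lower with TPM, and 1 was higher and 1 lower on all 3 scales. Slc32a1, the vesicular GABA transporter of inhibitory neurons, had 44.1, 43.1 and 23.3 TPM in knockdown, 35.4, 34.2 and 41.4 TPM in control oligo and 11.4, 10.6 and 11.4 TPM in sham. Every stroke library was above every sham library, and the change was 1.64 ± 0.14 (SE, adjusted p = 3.69e-05), and 1.02 with scaled TPM and 0.90 with coding TPM. Slc17a7, the vesicular glutamate transporter of most cortical excitatory neurons, averaged 352 ± 50.4 TPM in knockdown, 385 ± 97.2 TPM in control oligo and 229.7 ± 15.0 TPM in sham, with a change of 0.72 ± 0.17 (SE, adjusted p = 0.00610) with TPM that was 0.05 with scaled TPM and -0.09 with coding TPM and did not pass there. The ratio of Slc32a1 to Slc17a7 was 0.113, 0.116 and 0.0788 in knockdown, 0.105, 0.0688 and 0.129 in control oligo and 0.0473, 0.0451 and 0.0534 in sham, so stroke and sham did not overlap. Slc17a6, the glutamate transporter of thalamic and other subcortical neurons, had 11.4, 8.04 and 4.78 TPM in knockdown, 9.22, 8.68 and 4.74 TPM in control oligo and 12.5, 12.7 and 12.4 TPM in sham. All stroke libraries were below sham. It was lower in control oligo at -0.71 ± 0.23 (SE, adjusted p = 0.0246), and at -1.32 with scaled TPM and -1.52 with coding TPM, and without any 1 of the sham libraries the TPM call was lost (adjusted p = 0.0661 to 0.0708). Of 6 thalamus markers 5 were higher and 1 was lower with TPM, against 1 higher and 1 lower with scaled TPM, and their summed TPM was 61.5, 62.1 and 79.4 in knockdown, 67.3, 55.2 and 68.7 in control oligo and 44.9, 48.5 and 42.7 in sham. With coding TPM the sum was 96.3, 98.3 and 139 in knockdown, 118, 90.6 and 126 in control oligo and 132, 142 and 140 in sham. Control oligo thus lay above sham with TPM and below it with coding TPM. The part of these markers in the Slc17a6 value was not tested. Of 6 inhibitory neuron markers 5 were higher and none lower with TPM, and 1 was higher on all 3 scales. Beside both marker lists, 52.6% of all genes were higher and 12.8% lower with TPM. With scaled TPM the shares were 26.1% and 29.2%, and 21.9% of genes were higher on all 3 scales.

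Among the 4 endocytosis genes, Dnm1 encodes dynamin 1, the GTPase that pinches vesicles off, and had 713, 648 and 537 TPM in knockdown, 665, 661 and 660.4 TPM in control oligo and 315, 352 and 303 TPM in sham. The stroke libraries were all above sham, and the change was 1.03 ± 0.11 (SE, adjusted p = 8.20e-05). It passed with scaled TPM at 0.37 and did not with coding TPM at 0.23. Amph, amphiphysin, which recruits dynamin to the neck of the bud, averaged 155 ± 44.2 TPM in knockdown, 174 ± 40.8 TPM in control oligo and 86.5 ± 10.3 TPM in sham and changed by 0.98 ± 0.18 (SE, adjusted p = 0.00175), but by 0.32 with scaled TPM and 0.18 with coding TPM, which did not pass. Synj1 encodes synaptojanin 1, the lipid phosphatase that lets the clathrin coat fall off, and had 116, 38.2 and 95.8 TPM in knockdown, 122, 53.9 and 109 TPM in control oligo and 148, 108 and 84.3 TPM in sham. Knockdown library 3 and control oligo library 2 were far below the rest of their groups, and the change was -0.30 ± 0.32 (SE, adjusted p = 0.418). It was -0.96 with scaled TPM, which did not pass, and -1.11 with coding TPM, which passed as lower. Snap91 encodes AP180, a clathrin assembly protein, and averaged 97.4 ± 15.1 TPM in knockdown, 113 ± 20.5 TPM in control oligo and 100.2 ± 14.1 TPM in sham, with a change of 0.16 ± 0.17 (SE, adjusted p = 0.414) with TPM and of -0.50 with scaled TPM and -0.64 with coding TPM, where it was lower.

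The change between control oligo and sham was lower in members with longer transcripts. Spearman's rho between the log2 change with TPM and the longest annotated transcript was -0.60 over the 34 genes, -0.50 over 75 other genes of the pathway and -0.40 over 13834 nuclear protein-coding genes. Over all 17080 genes tested it was -0.15. These are correlations across genes, which share the 6 libraries and are not independent replicates. Among the 11 shortest members (1556 to 3261 nt) 11 were higher, and the median change was 0.92. Of the 12 in the middle (3367 to 4928 nt) 8 were higher and 1 was lower, and their median was 0.54. Of the 11 longest (5020 to 20084 nt) 2 were higher and 3 lower, 6 failed the test, and the median was 0.00. Of all genes tested, of any length, 52.6% were higher and 12.8% lower, with a median of 0.56. The same correlation in knockdown against control oligo, where the libraries were made alike, was -0.23 over the members, -0.05 over the protein-coding genes and 0.08 over all genes tested. The part of length in the stroke values was not tested.

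**Figure D3:**
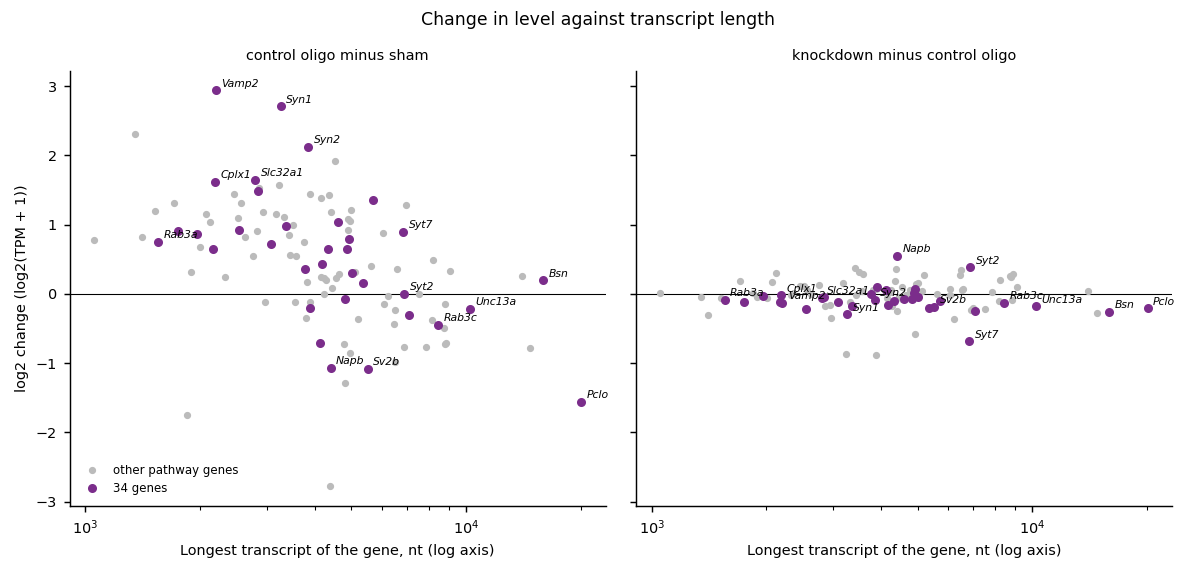
Log2 change (log2(TPM + 1)) against the longest transcript of the gene in nt, on a log axis, for control oligo minus sham (left) and knockdown minus control oligo (right); purple points are the 34 genes and grey points the other genes of the pathway. On the left Vamp2 and Syn1 lie high at short lengths and Pclo low at 20084 nt (rho -0.60), and on the right the 34 genes lie between -0.68 and 0.55 (rho -0.23).

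Ratios between paralogues or partners in one library are free of the scaling but not of the relation to transcript length above, and 11 were formed after the values had been seen. Sv2a over Sv2b was 1.36, 1.35 and 1.64 in knockdown, 1.60, 1.09 and 1.42 in control oligo and 0.399, 0.381 and 0.440 in sham. Each stroke library had more Sv2a than Sv2b and each sham library less. Cplx1 over Cplx2 was 1.57, 1.43 and 1.53 in knockdown, 1.66, 1.32 and 1.91 in control oligo and 0.896, 0.867 and 0.954 in sham, again on opposite sides of 1. Vamp2 over Vamp1 was 9.69, 10.8 and 8.06 in knockdown, 8.18, 11.2 and 9.92 in control oligo and 2.84, 3.33 and 3.64 in sham, and Slc17a7 over Slc17a6 was 34.3, 46.2 and 61.7 in knockdown, 36.6, 57.3 and 67.9 in control oligo and 19.3, 18.5 and 17.1 in sham. The stroke and sham values overlapped in neither. Knockdown and control oligo overlapped in all of the ratios named so far. In each of these the first gene has the shorter longest transcript, as with Vamp2 (2205 nt) and Vamp1 (5709 nt) or Cplx1 (2189 nt) and Cplx2 (4928 nt). For Snap25 the longest is Snap25-203 (4880 nt), annotated as a retained intron, which held at most 0.48% of the Snap25 TPM. Snap25-201 (2116 nt) held 94.9 to 97.0% and is shorter than the longest Vamp2 transcript. Syn1 over Syp (3261 and 2843 nt) and Syt7 over Syt1 (6834 and 4820 nt) have the longer gene first. Both were also higher in control oligo than in sham without overlap. Between knockdown and sham Syn1 over Syp did not overlap either. Syt7 over Syt1 did overlap there, with 0.0410, 0.0961 and 0.168 in knockdown and 0.0939, 0.0696 and 0.0462 in sham. The part of length in the ratios was not tested, and ratios of other gene pairs were not formed.

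Most members are sums of several transcripts, and the transcript that held most of the level was compared between groups. Of the 31 members with more than 1 transcript, 7 had another leading transcript in control oligo than in sham (Sv2b, Vamp1, Rab3a, Pclo, Dnm1, Synj1 and Snap91), a share close to the 21.7% of 12361 genes. Sv2b-204 held 1.76, 1.14 and 1.94 TPM in knockdown, 1.44, 1.45 and 2.46 TPM in control oligo and 145, 151 and 102 TPM in sham, so nearly all of it was in sham. Of the Rab3a TPM, Rab3a-202 held 0.966, 2.35 and 4.91% in knockdown, 2.17, 10.0 and 1.26% in control oligo and 60.3, 43.6 and 59.4% in sham. Rab3a-201 held 64.2, 60.3 and 58.8% in knockdown, 69.9, 51.9 and 60.6% in control oligo and 23.8, 35.4 and 26.7% in sham, so the leading transcript changed between the data sets. Snap91-209, a transcript annotated as a retained intron, held 1.13, 1.47 and 1.42 TPM in knockdown, 1.86, 2.58 and 3.16 TPM in control oligo and 62.0, 58.4 and 52.8 TPM in sham, and Snap91-202 held 71.8, 84.9 and 48.5 TPM in knockdown, 66.4, 84.7 and 73.5 TPM in control oligo and 0.505, 0.628 and 4.91 TPM in sham. Of the Vamp1 TPM, Vamp1-203 held 8.88, 11.8 and 22.2% in knockdown, 11.1, 19.0 and 11.6% in control oligo and 57.1, 47.8 and 67.6% in sham.

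Pclo-203, also annotated as a retained intron, held 3.09, 0 and 0 TPM in knockdown, 0, 0.0321 and 0 TPM in control oligo and 14.6, 14.0 and 14.5 TPM in sham. Pclo-201, the full model of 20084 nt, was also lower in every stroke library than in sham, with 0.479, 1.28 and 4.64 TPM in knockdown, 3.15, 4.10 and 4.26 TPM in control oligo and 15.3, 13.3 and 9.40 TPM in sham. Over all members, transcripts annotated as retained introns took 1.70, 1.76 and 2.88% of the TPM in knockdown, 2.40, 2.69 and 2.13% in control oligo and 3.17, 3.85 and 3.57% in sham. The shares are estimates from read pairs of unequal length between the data sets, and some moved between libraries of 1 group. Synj1-208, for example, held 60.7, 5.31 and 55.2 TPM in knockdown, 87.3, 8.40 and 75.2 TPM in control oligo and 56.3, 17.0 and 14.1 TPM in sham, and the stroke libraries with little of it, knockdown 3 and control oligo 2, were those with the lowest Synj1.

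**Figure D4:**
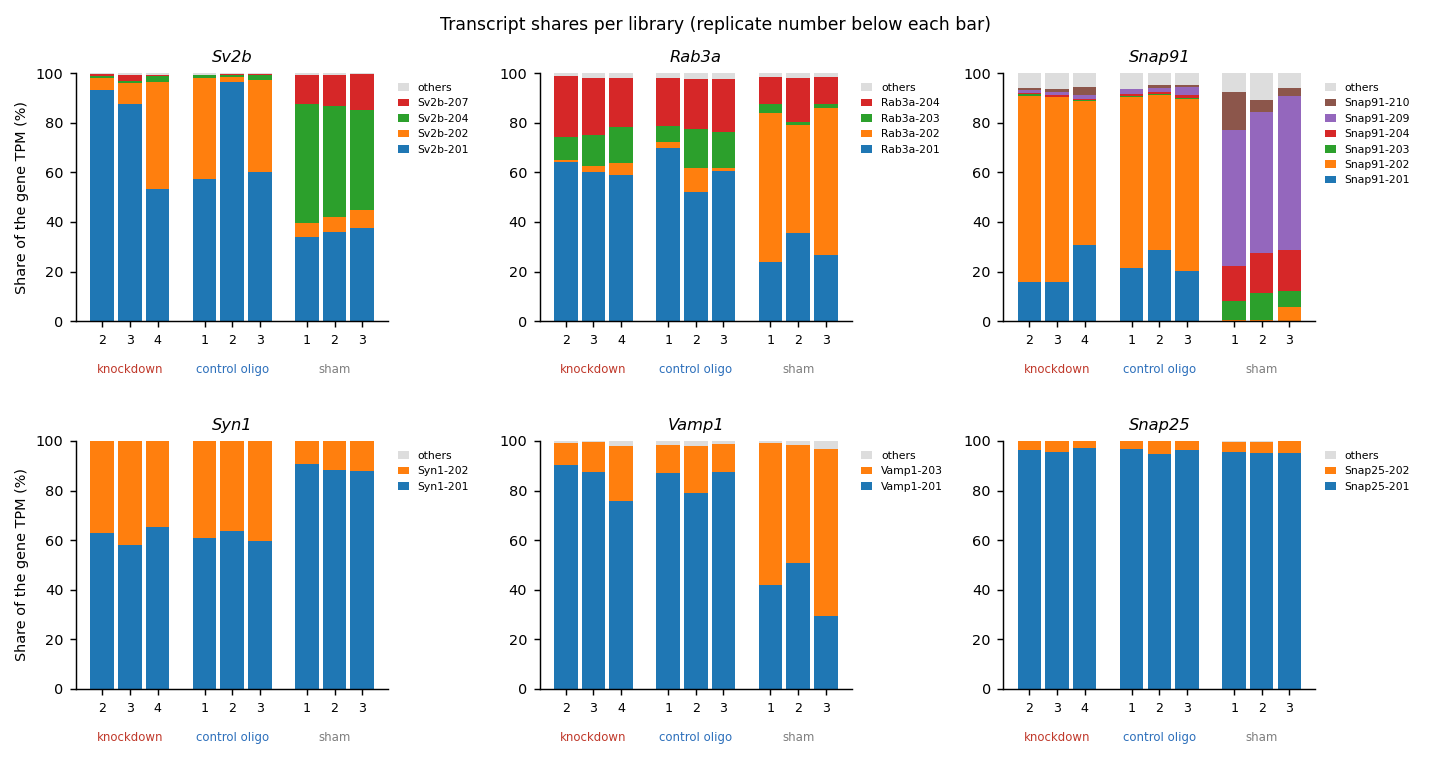
Share of the gene TPM held by each annotated transcript (stacked bars, in percent; grey, all others) in each library, with knockdown left, control oligo in the middle and sham right, for Sv2b, Rab3a, Snap91, Syn1, Vamp1 and Snap25. Sv2b-204 and Snap91-209 fill 40.4 to 47.9% and 54.8 to 62.0% of the sham bars and at most 2.99% of the stroke bars, while Snap25-202 keeps 2.98 to 5.07% in every library.

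Another 76 genes of the pathway were read in the same way, and 75 were tested. With TPM 38 were higher and 12 lower in control oligo than in sham (median 0.36), where 52.6% of all genes were higher and 12.8% lower (median 0.56). On all 3 scales 12 were higher and 12 lower, where 21.9% of genes were higher and 8.38% lower. The same shares of all genes stand beside the counts of each list below. Of 14 SNARE and fusion genes 9 were higher and 1 was lower with TPM, and 4 were higher and 1 lower on all 3 scales. The lower gene was Stxbp5l, a tomosyn, with 9.13 ± 4.27 TPM in control oligo and 64.0 ± 6.81 TPM in sham (change -2.77). Of 16 active zone and priming genes 5 were higher and 6 lower with TPM, and on all 3 scales none was higher and 6 were lower. The scaffold gene Rims2 had 19.1 ± 4.54 TPM in control oligo and 47.3 ± 1.56 TPM in sham (change -1.29) and Rims3 7.68 ± 1.34 TPM in control oligo and 16.3 ± 4.51 TPM in sham (change -0.98), while Rims4 had 69.4 ± 15.8 TPM in control oligo and 32.4 ± 1.33 TPM in sham (change 1.06) and Rab3b 34.8 ± 7.91 TPM in control oligo and 15.4 ± 1.12 TPM in sham (change 1.11).

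Of 12 further synaptotagmins and calcium sensors 6 were higher and 4 lower. Rph3a, a Rab3 effector, changed by 1.38 and Doc2b by 1.42, while Syt10 changed by -1.75 and Cadps, which primes dense-core vesicles, by -0.77. Of 20 endocytosis genes 13 were higher and none lower, and the 2 with the smallest p were Clta, a clathrin light chain (1.32), and Epn1, or epsin (1.32). Of 13 further vesicle proteins and transporters tested 5 were higher and 1 lower, with Sncb, beta-synuclein, at 2.31, Atp6v1b2, a subunit of the proton pump, at 0.90 and Syn3, synapsin III, at -0.72. Rab3b and Atp6v1b2 did not pass with scaled or coding TPM and Rims4 did not with coding TPM, and the other genes named from these lists passed in the same direction on all 3 scales.

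Many neuronal genes carry RE1, the site of the repressor REST. The core of the motif, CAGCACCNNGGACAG, was searched on both strands of the RefSeq promoter windows (GRCm38.p6, 300 bases around each start). It was in 0 of 36 windows of the 27 members that matched a window, and in 12 of 32851 windows overall (0.0365%). An exact core is so rare in these windows that 36 of them cannot tell whether the members lack the site. Inexact matches and sites outside the windows were not searched.

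Knockdown against control oligo asks what the loss of the enhancer RNA changed in injured cortex, and both groups had the same surgery and library preparation. The level of eRNA_06347 itself was not analysed here. None of the 34 genes was higher and none was lower (limma, adjusted p under 0.05), where 1 gene of 17080 was higher (0.00585%) and 1 lower (0.00585%). The members' counts were 0 and 0 with scaled TPM too, where 0.0117% of genes were higher and 0.00585% lower, and with coding TPM, where no gene passed. None reached an unadjusted p under 0.05, as 321 of all genes did, and in none did the 2 groups fail to overlap, as 5.4% of all genes did. The members' median log2 change was -0.10, with 6 above 0 and 28 below, against 0.06 for all genes. The 95% interval of a member, which is not adjusted for the number of genes, reached a median of 0.55 to either side of its value. With 3 libraries a group, passing after adjustment over 17080 genes mostly needed a change larger than that. The 1 higher gene had a log2 change of 3.48 and the 1 lower gene -6.27. The other genes of the pathway gave 0 higher and 0 lower of 75, with a median of 0.03, and in 2 of them, Vamp3 and Unc13c, the groups did not overlap.

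The 4 members with the smallest p did not pass. Syt7 changed by -0.68 (95% interval -1.56 to 0.19), with an unadjusted p of 0.107 in limma, and its values of 25.6 to 62.3 TPM in knockdown overlapped 54.3 to 96.7 TPM in control oligo. Syt2 changed by 0.39 (95% interval -0.16 to 0.93) with an unadjusted p of 0.137 in limma, with 16.2 to 25.6 TPM in knockdown and 12.6 to 17.3 TPM in control oligo. Syn1 changed by -0.30 (95% interval -0.84 to 0.24) with an unadjusted p of 0.232 in limma, and Bsn by -0.26 (95% interval -0.79 to 0.27) with an unadjusted p of 0.281 in limma. The members with extreme changes against sham had intervals that included 0 here, with -0.13 (95% interval -0.62 to 0.35) for Vamp2, -0.21 (95% interval -0.91 to 0.49) for Pclo, -0.06 (95% interval -0.69 to 0.58) for Slc32a1, -0.19 (95% interval -0.96 to 0.58) for Sv2b and -0.08 (95% interval -0.44 to 0.28) for Dnm1. Napb had the highest value, 0.55 (95% interval -0.79 to 1.88), and was -0.13 without control oligo library 3, the library with 42.1 TPM. Among the 31 members with several transcripts only Amph had another leading transcript in knockdown than in control oligo, against 13.7% of 12361 genes. The ratio of Syt2 to Syt1 was 0.0410, 0.0352 and 0.0436 in knockdown, 0.0241, 0.0292 and 0.0324 in control oligo and 0.0225, 0.0267 and 0.0320 in sham, so knockdown and control oligo did not overlap in it, and it was the only 1 of the 11 ratios, chosen after the values had been seen, of which that was true.

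Knockdown library 4 stood apart from the other 5 stroke libraries in these genes. It was the lowest knockdown library for 30 of the 34 genes, as it was for 46.4% of all genes, and all but Syt7, Bsn, Pclo and Synj1 are in that count. Among the 6 stroke libraries it was the lowest for 24 of the 34, against 21.8% of all genes. Relative to the mean of the control oligo libraries, the median member of knockdown libraries 2, 3 and 4 lay at 0.22, 0.04 and -0.45 on the log2 scale, where the median of all genes lay at 0.11, 0.05 and -0.00. With scaled TPM the members lay at 0.09, -0.01 and -0.44. Syp, for example, had 674 TPM in that library against 1291 and 1234 TPM in the other knockdown libraries, and Slc32a1 had 23.3 TPM against 44.1 and 43.1 TPM.

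Some marker lists stood apart in that library too. The summed TPM of 6 neutrophil markers was 73.6, 92.1 and 1388 in knockdown, 322, 30.8 and 336 in control oligo and 4.24, 7.59 and 2.59 in sham, and Mpo, Ly6g and Retnlg were listed at 0 in all sham libraries. For 6 microglia markers the summed TPM was 256, 220.1 and 449 in knockdown, 229.5, 237 and 209 in control oligo and 131, 139 and 117 in sham. For 6 endothelial markers it was 110.3, 104 and 248 in knockdown, 125, 102 and 143 in control oligo and 76.4, 74.6 and 72.1 in sham, and knockdown library 4 was the highest of the 9 in all 3 lists. For 6 astrocyte markers the summed TPM was 1253, 1349 and 1372 in knockdown, 1369, 1174 and 1517 in control oligo and 1045, 1019 and 869 in sham, and for 6 oligodendrocyte markers it was 1095, 1284 and 1208 in knockdown, 961, 1011 and 1433 in control oligo and 579.6, 587 and 817 in sham. In neither of these did knockdown library 4 lie outside the range of the control oligo libraries. With coding TPM the microglia sum was 401, 388 and 382 in control oligo and 387, 405 and 382 in sham. The endothelial sum was 219, 167 and 261 in control oligo and 225, 218 and 236 in sham on that scale. For oligodendrocytes it was 1680, 1658 and 2621 in control oligo and 1708, 1715 and 2668 in sham. For astrocytes it was 2394, 1926 and 2775 in control oligo and 3078, 2977 and 2840 in sham. The 8 neuron markers summed to 1456 TPM in knockdown library 4, against 2012 and 2078 TPM in the other knockdown libraries. No marker list had a gene that passed between knockdown and control oligo, and the part of these cells in the members' values was not tested. Without knockdown library 4 the members' median was 0.11 with TPM and 0.02 with scaled TPM, and again none of the 34 passed in either direction.

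**Figure D5:**
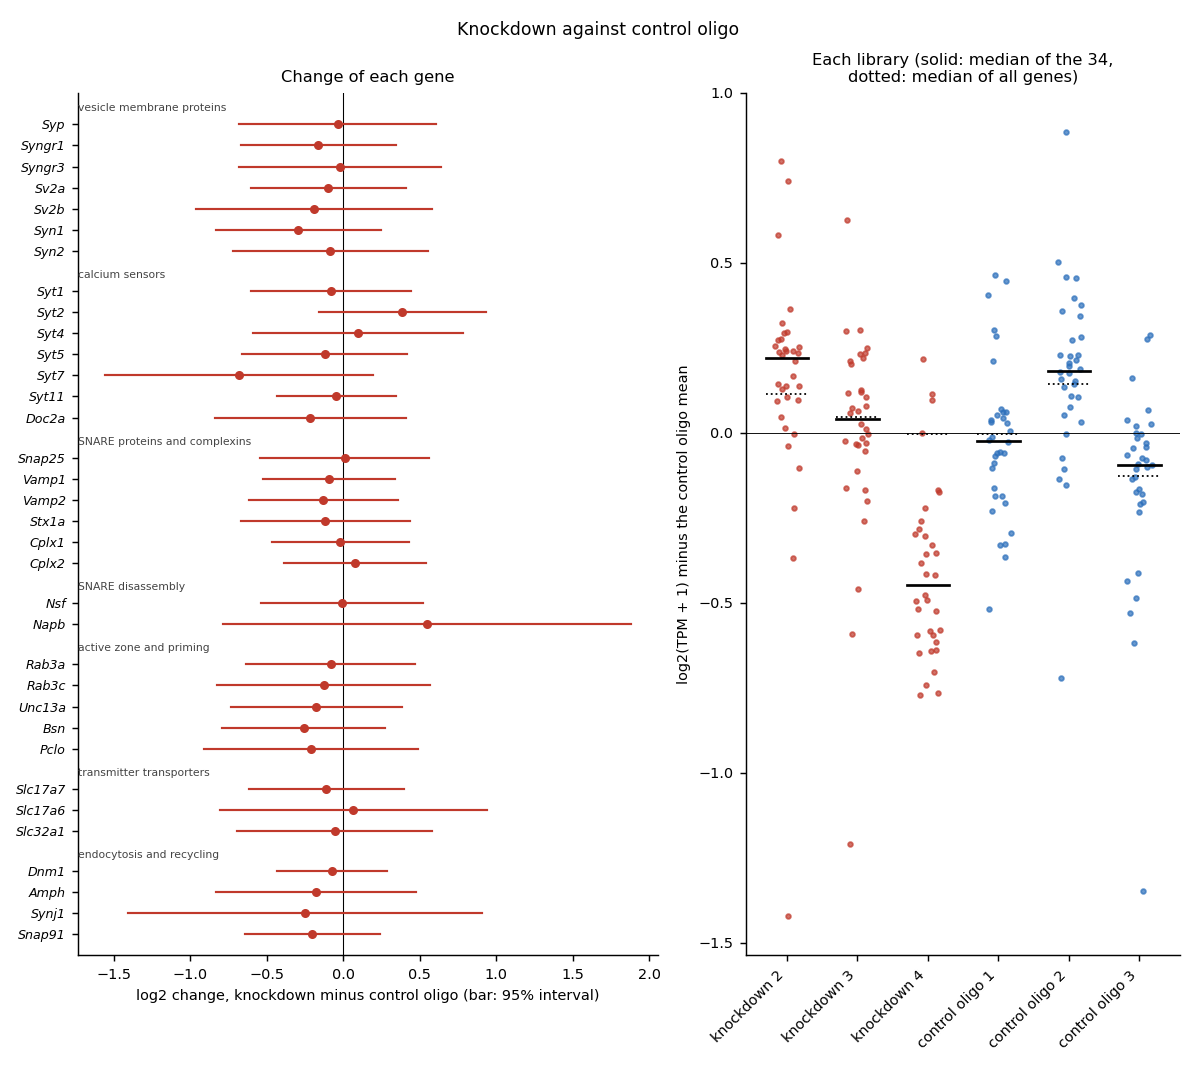
Left, log2 change of each of the 34 genes, knockdown minus control oligo, with its 95% interval; right, log2(TPM + 1) of the 34 genes in each stroke library minus their mean in control oligo, with the median of the 34 (solid) and of all genes (dotted). Every interval includes 0, and knockdown library 4 has a median of -0.45 for the 34 genes while all genes lie at -0.00.

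Knockdown against sham uses the same sham libraries as control oligo against sham, so the 2 are set side by side only. With TPM 16 of the 34 genes were higher and 4 lower (52.7% and 12.5% of all genes), with scaled TPM 7 were higher and 12 lower (22.7% and 27.1%), and with coding TPM 5 were higher and 14 lower (17.8% and 28%). On all 3 scales 5 were higher (Syn1, Syn2, Vamp2, Cplx1 and Slc32a1) and 4 lower (Sv2b, Napb, Unc13a and Pclo), against 18.3% and 7.89% of genes. Vamp2 changed by 2.80 ± 0.21 (SE, adjusted p = 3.62e-05) in knockdown and by 2.94 in control oligo. Pclo changed by -1.77 ± 0.19 (SE, adjusted p = 1.58e-04) in knockdown and by -1.56 in control oligo. Unc13a was lower in knockdown at -0.39 ± 0.12 (SE, adjusted p = 0.0239), and in control oligo it stood at -0.21 without passing. The Unc13a call in knockdown was lost without sham library 1 or 2, with the replicate number as a block, and in 1 fit over all 9 libraries. Syt7 stood at 0.21 ± 0.37 (SE, adjusted p = 0.630) in knockdown without passing, and at 0.90 in control oligo. Napb was lower in knockdown at -0.52 ± 0.19 (SE, adjusted p = 0.0385), where the 3 libraries were closer together than in control oligo. That call was lost without any 1 of the sham libraries and without knockdown library 3 (adjusted p = 0.0505 to 0.129). It was also lost with no filter (adjusted p = 0.0812) and in 1 fit over all 9 libraries (adjusted p = 0.335). Rab3a was higher in knockdown at 0.67 ± 0.23 (SE, adjusted p = 0.0342), and that call was lost without any 1 of the sham libraries and without knockdown library 2 or 3 (adjusted p = 0.0672 to 0.108), and with no filter (adjusted p = 0.0876). The count of higher genes was 22 without knockdown library 4, and that of lower genes was 2 without sham library 1 or sham library 2.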

How the data were processed

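RNA was sequenced from 9 libraries of mouse cortex, 3 a group. The authors aligned reads with HISAT2 2.0 and estimated transcript abundance with StringTie 1.3 on mm10, per the submitters' processing notes. Per the file headers StringTie was version 1.3.4d. The deposited tables give TPM, FPKM and coverage for 131100 transcripts, which the authors' processing derived. Reads per gene were not used here. The poly(A) stroke libraries were prepared with a stranded kit, per the labels' protocols.

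TPM was summed over the transcripts of a gene, and genes with at least 1 TPM in at least 3 libraries were tested (17080 of 52550). limma 3.58.1 in R 4.3.3, with an intensity trend, was run on log2(TPM + 1) over the 6 libraries of each comparison, with Benjamini-Hochberg adjustment over all genes tested and a threshold of 0.05. Fold changes are on that scale, which understates low genes. Scaled TPM, coding TPM, FPKM, a pseudocount of 0.1, no filter, 1 fit over 9 libraries, leaving out each library, and the replicate block were the alternatives. Coverage of the transcripts gave the aligned bases. Where the labels do not say that libraries came from separate animals, p-values measure only the spread between these samples, which may be technical. Depth in reads per gene is unknown, so no counting interval is given.

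The members and gene lists were chosen with earlier results of these data known. Named genes are the highest and lowest change of each role in control oligo against sham and the 4 members with the smallest unadjusted p in knockdown against control oligo. Of each list of other pathway genes, up to 2 in each direction with the smallest p were named. Some genes that this rule names are not reported here. The other members are named to account for all 34. Transcripts and ratios were chosen after the values were seen. Annotation is GENCODE M21, in which 99.72% of the gene IDs were found, and RefSeq (GRCm38.p6). Python 3.11.15, numpy 2.4.6, pandas 2.3.3, scipy 1.17.1 and matplotlib 3.10.9 were used.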

Additional observations from a re-analysis of the deposited data

How the results depend on the processing

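The alternatives were FPKM, a pseudocount of 0.1, no filter, scaled TPM, coding TPM, 1 fit over all 9 libraries, each library left out, and the replicate number as a block; scaled TPM without knockdown library 4 was added after the data had been seen. In control oligo against sham the 21 higher members became 9 with FPKM, 8 with scaled TPM and 7 with coding TPM, and the 4 lower became 11, 13 and 15, or 2 in the fit over 9 libraries. The median of 0.64 became 0.047, -0.020 and -0.16 on those 3 scales. With 1 library left out the counts were 19 to 22 higher and 2 to 6 lower. In knockdown against sham the 16 higher became 7, 7 and 5, and the 4 lower became 12, 12 and 14, 2 in the fit over 9 libraries, 2 with the replicate block and 13 with scaled TPM without knockdown library 4. The median of 0.54 became -0.092, -0.18 and -0.36, and -0.016 in scaled TPM without that library, and leaving out 1 library gave 12 to 22 higher and 2 to 5 lower. In knockdown against control oligo no alternative passed any member, and the median was -0.21 to 0.11 with 1 library left out.

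Signs turned in control oligo against sham with FPKM (Syngr1 -0.17, Syt2 -0.54, Syt11 -0.29, Nsf -0.24, Bsn -0.39 and Snap91 -0.43), with scaled TPM (Syngr1 -0.24, Sv2a -0.020, Syt2 -0.62, Syt11 -0.36, Snap25 -0.023, Stx1a -0.020, Nsf -0.30, Bsn -0.46 and Snap91 -0.50) and with coding TPM (Syngr1 -0.38, Sv2a -0.16, Syt2 -0.78, Syt11 -0.50, Snap25 -0.16, Stx1a -0.16, Cplx2 -0.015, Nsf -0.44, Rab3a -0.054, Bsn -0.60, Slc17a7 -0.088 and Snap91 -0.64). In knockdown against sham, members above 0 numbered 23 with TPM, 13 with scaled TPM and 8 with coding TPM. All members were refitted, but in the knockdown comparisons only those chosen by the naming rule are listed one by one here. Of these, those that turned were, with FPKM (Syt2 -0.20, Syt7 -0.39, Stx1a -0.10 and Nsf -0.28), with scaled TPM (Syt2 -0.29, Syt7 -0.49, Stx1a -0.19, Nsf -0.37 and Rab3a -0.052), with coding TPM (Syt2 -0.47, Syt7 -0.67, Doc2a -0.14, Stx1a -0.37, Nsf -0.54 and Rab3a -0.23) and with scaled TPM without knockdown library 4 (Syt2 -0.19, Syt7 -0.78 and Nsf -0.16). The scales divide the stroke and sham libraries by different amounts, and the cause of each turn was not tested. In knockdown against control oligo members above 0 numbered 6 with TPM, 5 with scaled TPM and 3 with coding TPM. Among those listed one by one, Slc17a6 -0.019 turned with coding TPM, and scaled TPM without knockdown library 4 gave Sv2b 0.0099, Stx1a 0.032, Nsf 0.14, Rab3a 0.085 and Slc32a1 0.15.

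With 1 library left out, values that crossed 0 were, in control oligo against sham, of all 34 members, Syt1 -0.17 to 0.0036, Syt2 -0.12 to 0.12, Syt4 -0.41 to 0.099, Unc13a -0.44 to 0.0056 and Synj1 -0.52 to 0.059; in knockdown against control oligo, of the members chosen by the naming rule, Sv2b -0.40 to 0.097, Syt4 -0.21 to 0.30, Vamp2 -0.27 to 0.063, Stx1a -0.32 to 0.12, Nsf -0.13 to 0.23, Napb -0.13 to 0.99, Rab3a -0.25 to 0.17, Slc17a6 -0.20 to 0.35, Slc32a1 -0.21 to 0.24, Dnm1 -0.17 to 0.038 and Synj1 -0.61 to 0.23; and in knockdown against sham, of the same members, Syt4 -0.20 to 0.020 and Syt7 -0.10 to 0.58. The cause was not tested. In the fit over 9 libraries Syngr1, Syt7, Nsf, Rab3c and Slc17a6 no longer passed against sham in control oligo.

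Samples of 1 number did not deviate together in every pair: the correlations were -0.03, -0.07 and 0.12 between control oligo and sham, 0.23 and 0.07 between knockdown and control oligo, and -0.06 and 0.07 between knockdown and sham. Pairs of different numbers gave -0.11 to 0.14, -0.24 to 0.29 and -0.12 to 0.11 in the same order. So few pairs cannot tell whether samples of 1 number were processed together, and the labels do not say. The replicate block gave 22 higher and 5 lower members in control oligo against sham, where Syt11 and Napb passed as well. In knockdown against control oligo, where it covers numbers 2 and 3 only, it gave Vamp2 0.086, Stx1a 0.090, Nsf 0.20, Rab3a 0.20, Slc32a1 0.21 and Dnm1 0.041, and in knockdown against sham Syt4 0.056. There the block lost the Napb call (-0.35, adjusted p = 0.0766) and the Unc13a call. It passed Stx1a (0.80, adjusted p = 0.00531) and Nsf (0.58, adjusted p = 0.0213). With 3 libraries a group, a change under about 0.55 on the log2 scale between knockdown and control oligo was mostly not detectable.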
